A study of Drosophila melanogaster with 3 samples.

Results

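Of the 30000 regions in the pooled list of CG3281-GFP binding in fly embryos, 568 had their summit at an isolated non-coding RNA start. A region was counted when its summit lay within 500 bp of the start of a gene that Ensembl gives the biotype ncRNA and more than 1000 bp from every protein-coding transcription start site (TSS). Of these 568 regions, 111 (19.5%, exact 95% interval 16.4 to 23.0%) were also in the authors' reproducible set, which is filtered by the irreproducible discovery rate (IDR). Over the whole pooled list 21.9% of regions were in that set.

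The zinc-finger protein encoded by CG3281 was pulled down through its GFP tag with an antibody against GFP, and the DNA was sequenced. The organism was Drosophila melanogaster, and the material was sonicated chromatin of whole embryos of mixed sex, 0 to 24 h old, from a transgenic line that stably expresses CG3281 with GFP at its C terminus. The 3 samples were biological replicates of 1 group, with no second condition, and no untagged line was analysed here. The embryos are a mixture of all cell types and stages, so a region bound in few cells and one bound weakly in many cannot be told apart.

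Genes for non-coding RNAs yield RNAs that act without being translated. Long non-coding RNAs are transcribed like messenger RNAs, antisense RNAs run opposite to another gene, and microRNAs (miRNAs) are cut as short strands from hairpins within longer primary transcripts. The annotated start of a long RNA is therefore taken to mark a promoter, whereas that of a hairpin or of a mature miRNA marks where a processed product begins. How exactly the annotated starts of long RNAs match their true starts was not tested. The ncRNA biotype in the annotation held all of these: 1944 long RNAs, 503 antisense RNAs, 260 hairpins, 481 mature miRNAs and 73 other small or structured RNAs. The label of a transcription start thus applied, as annotated, to the long and antisense RNAs but not to the miRNA entries.

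The sequences under the strongest of these summits are shown first, because base composition differed between the reproducible regions and the rest. Each is 101 bases of the plus strand of dm6 centred on the summit, read from the RefSeq assembly. Capitals mark 5 words of 6 bases, all made of A and T alone, or their reverse complements. They were chosen as the words most raised at the summits of the other 6454 reproducible peaks over their flanks. Each flank here was a window centred 500 bp from the summit on the side of higher coordinates. The excess over flanks in the next values was therefore fixed by that choice. AAATAT was found in 33.9% of those summit windows and 15.6% of flanks, TAAATA in 29.8 and 13.8% and TTAAAA in 29.5 and 14.8%. For TATTAA the shares were 19.1 and 8.12%, and for AATATT they were 17.9 and 7.42%. The first 6 windows are from the 7 strongest regions, and the last 2 lie at the starts of the well-studied RNAs Hsromega and flam.
lncRNA:CR44619 (chrX:12752314-12752414): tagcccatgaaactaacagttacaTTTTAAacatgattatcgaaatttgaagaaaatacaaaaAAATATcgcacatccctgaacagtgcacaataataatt
lncRNA:CR46036 (chr3R:17700530-17700630): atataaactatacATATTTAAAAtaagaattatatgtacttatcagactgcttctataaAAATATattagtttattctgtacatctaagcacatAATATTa
lncRNA:CR31840 (chr2L:14024024-14024124): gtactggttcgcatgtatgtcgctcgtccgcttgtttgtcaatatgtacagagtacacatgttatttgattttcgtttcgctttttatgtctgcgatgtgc
lncRNA:CR31044 (chr3R:29214397-29214497): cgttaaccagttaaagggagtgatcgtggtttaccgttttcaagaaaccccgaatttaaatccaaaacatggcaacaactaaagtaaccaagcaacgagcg
lncRNA:CR45541 (chrX:9583894-9583994): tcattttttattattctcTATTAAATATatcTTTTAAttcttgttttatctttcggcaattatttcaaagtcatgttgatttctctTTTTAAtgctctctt
lncRNA:CR45352 (chr2L:14022263-14022363): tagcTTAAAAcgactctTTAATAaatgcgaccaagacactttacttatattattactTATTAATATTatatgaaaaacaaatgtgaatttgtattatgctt
lncRNA:Hsromega (chr3R:21296245-21296345): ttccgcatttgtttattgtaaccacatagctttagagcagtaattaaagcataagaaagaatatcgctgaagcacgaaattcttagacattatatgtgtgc
lncRNA:flam (chrX:21631653-21631753): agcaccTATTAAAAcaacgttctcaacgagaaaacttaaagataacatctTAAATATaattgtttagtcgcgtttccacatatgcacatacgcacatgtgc
The windows at CR46036, CR45541 and CR45352 are A/T-rich, with 18.8, 21.8 and 22.8% G+C. The windows at CR31840, CR31044 and Hsromega hold none of the 5 words, with 41.6, 41.6 and 33.7% G+C.

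The 5 strongest regions at isolated ncRNA starts had nearly equal pooled signals, between 2835 and 2917, and ranked 55 to 63 of the pooled list. The pooled list had a median signal of 98.29, on the authors' own signal scale. Because that scale differed between lists, replicate values are given as multiples of the median signal of the replicate's own list. The strongest region lay on X from 12752152 to 12752575, 497 bp inside lncRNA:CR44619, with values of 28.6, 22.2 and 25 in replicates 1, 2 and 3. It stood beside a region of signal 7244 whose summit was 1044 bp away and 547 bp from the same RNA's start, just too far to be counted.

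The next region lay upstream of lncRNA:CR44339 on 2R, from 12985025 to 12985428, with values of 27.3, 24.3 and 23.1 in the 3 replicates. Its nearest coding TSS, 4200 bp away, was that of Psc, which encodes a Polycomb group protein. The region at lncRNA:CR46036 on 3R, from 17700345 to 17700799, had values of 26.3, 22.8 and 25.2 and lay inside an intron of osa, which encodes a subunit of the Brahma chromatin remodelling complex. At lncRNA:CR31840 on 2L, 25 bp past the start, the values were 29.7, 26.6 and 20.3. The fifth lay 115 bp upstream of lncRNA:CR31044 on 3R, from 29214235 to 29214627, with values of 27.7, 24.3 and 21.9. CR31044 contains the hairpins of mir-279 and mir-996. In all 5 regions replicate 1 gave the highest value, and no replicate fell below 20.3 times its list's median.

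Below these 5 there was a gap. The region at lncRNA:CR45541 on X had a pooled signal of 1679, with values of 15.1, 14.2 and 14.7 in the replicates. Then came the region at lncRNA:CR45352 on 2L, with a pooled signal of 1542 and values of 11.2, 14.5 and 14.5, which lay 1761 bp from the strong region at CR31840. The region in an intron of Dif, the gene of an NF-kappaB family immune factor, had a signal of 1316 and lay 491 bp past the start of lncRNA:CR44409. No region of the replicate 1 list spanned that summit, while replicates 2 and 3 gave 9.86 and 12.9. Of the 25 strongest regions, 23 were spanned in all 3 replicates and were among the strongest 6565 of each. The other exception was lncRNA:CR44276 on 2R, also without a region in replicate 1 and at 4.93 and 6.61 in the others.

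These 25 regions belonged to 24 entries: 22 regions at long RNAs, 2 at antisense RNAs and 1 at a mature miRNA. Of the 25, 16 were intergenic, which here means outside coding genes, and 9 were in introns of coding genes. In 14 the summit was upstream of the start. lncRNA:CR45251 on 3L carried 2 of them, with signals of 1154 downstream and 964.8 upstream of its start. The neighbouring lncRNA:CR44867 and lncRNA:CR44868, both in an intron of beat-Ib, an immunoglobulin superfamily gene of axon guidance, carried 1 each, with signals of 1141 and 1059. Other intronic regions lay in ChAT, the gene of the acetylcholine-making enzyme (lncRNA:CR46265, 985.7), in puc, the gene of a JNK phosphatase (lncRNA:CR44331, 952.7), and in osp (lncRNA:CR43411, 949.0). The remaining named regions had signals of 1179 at lncRNA:CR44676, 1078 at lncRNA:CR45531 in CG14434, 993.7 at lncRNA:CR45355 and 898.9 at asRNA:CR43469. Signals were 849.9 at asRNA:CR45999, 721.8 at lncRNA:CR45585, 714.0 at lncRNA:CR44276 and 711.7 at lncRNA:CR46243. The last lay 9300 bp from the TSS of Myc, which encodes a growth-promoting transcription factor.

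**Figure D1:**
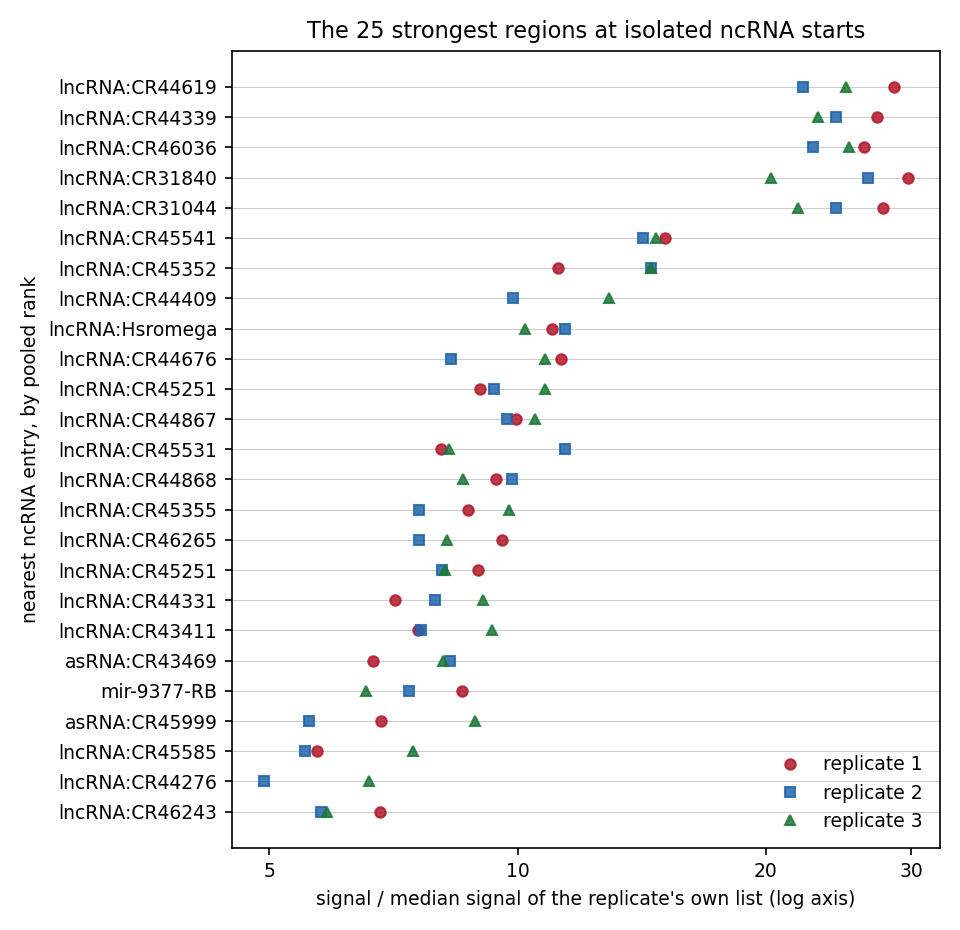
Signal of the 25 strongest regions at isolated ncRNA starts in each replicate, as a multiple of the median signal of that replicate's own list on a log axis, ordered by pooled rank. The first 5 stand apart between 20.3 and 29.7, and CR44409 and CR44276 have no replicate 1 point because no region there spanned the summit.

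Across all 568 regions, the share recovered in each replicate was set beside 17947 other regions more than 1000 bp from every coding TSS and 8529 regions within 500 bp of a coding TSS. Among the strongest 6565 regions of replicates 1, 2 and 3 were 21.8, 19.9 and 19.4% of the regions at isolated ncRNA starts (20.4 ± 1.3%, SD, n = 3). The other regions far from coding TSSs gave 16.5, 15.4 and 17.3% (16.4 ± 0.967%, SD, n = 3). The ncRNA share was the higher one in all 3 replicates, by 5.35, 4.51 and 2.05 percentage points (3.97 ± 1.71, SD). The exact two-sided sign-flip permutation test gave p = 0.25, the smallest value that 3 replicates allow. Regions at coding TSSs were far higher, at 35.8, 38.3 and 37.5%.

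The same order held for the reproducible set. That set consists of the 6565 regions of highest pooled signal from the same replicates, so it is not an independent result. It held 19.5% of isolated ncRNA starts, 15.5% of other regions far from coding TSSs (15.0 to 16.1%) and 35.3% of regions at coding TSSs (34.3 to 36.3%). The ncRNA share thus lay below the 21.9% of the whole list, though its interval of 16.4 to 23.0% holds that value. The median pooled signal relative to the list's median was 0.936 at ncRNA starts (quartiles 0.67 and 1.65), 0.884 at other far regions and 1.41 at coding TSSs. When regions with a stronger one within 1000 bp were left out, a choice made after seeing the data, it was 1.11 at ncRNA starts. That filter drops weaker regions from any group. The medians of the other groups under it are not given, so 1.11 cannot be compared with those above. At the top of the list, 15 of the 568 (2.64%) were among the strongest 656 pooled regions, against 156 (0.869%) of the other far regions, 426 (4.99%) of regions at coding TSSs and 656 (2.19%) of the whole list. Within the reproducible set the median signal was 395.3 at ncRNA starts, 314.3 at other far regions and 371.8 at coding TSSs. No test over replicates was available for these pooled values.

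**Figure D2:**
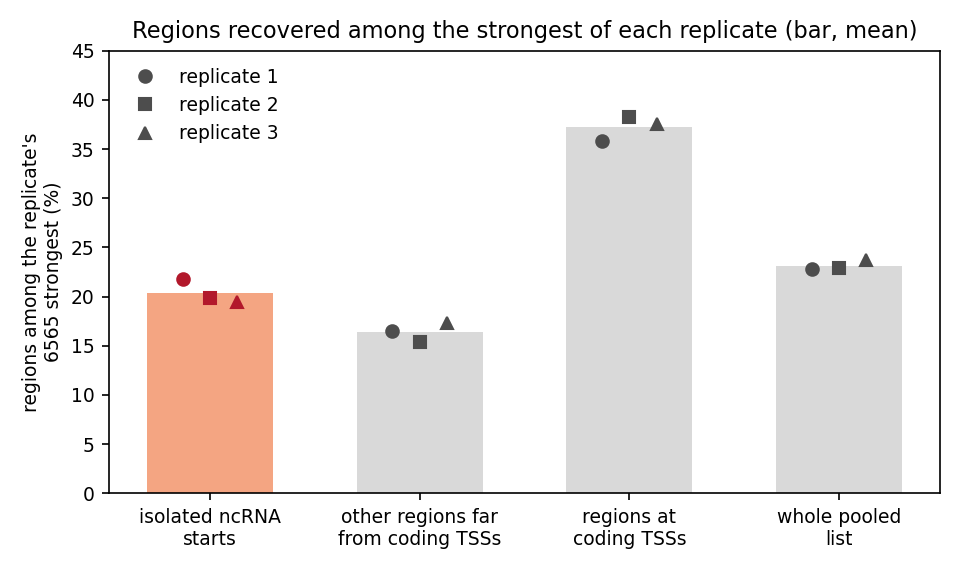
Percent of each group of pooled regions whose summit was spanned by one of the 6565 strongest regions of a replicate, with 1 point per replicate and the mean as a bar. Isolated ncRNA starts lie between 19.4 and 21.8%, above the other regions far from coding TSSs in every replicate and below regions at coding TSSs.

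Most of the 568 regions were weak. In replicates 1, 2 and 3, a region of any strength spanned 70.2, 67.4 and 72.7% of their summits, and 219 (38.6%) were spanned in all 3, against 39.9% of other far regions. A further 13 were spanned in none. Of the 111 reproducible ones, 101 (91.0%) were spanned in all 3 and 74 (66.7%) were among the strongest of all 3, against 96.1 and 59.5% of reproducible other far regions. Where both replicates held a region, their signals at ncRNA starts had a Spearman correlation across regions of 0.737, 0.725 and 0.736 for the 3 replicate pairs. Regions are not independent replicates, so these values only describe the lists.

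The 568 regions were not 568 separate sites. They belonged to 465 ncRNA entries, 198 regions shared their entry with another region, and merging overlaps left 481 stretches. A width of 436 bp, the most common in the list, was found in 490 of all the regions but in only 35 of the 111 reproducible ones. A stronger pooled region lay within 1000 bp of 226 regions (39.8%), against 34.9% of other far regions. Within the reproducible set this held for 18 (16.2%), against 12.3%.

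Seen from the genes, 2325 of the 3261 ncRNA entries started more than 1000 bp from every coding TSS. A pooled region lay within 500 bp of 515 of these starts (22.2%), and a reproducible one within 500 bp of 127 (5.46%). Long RNAs led with 25.9% for the pooled list and 6.34% for the reproducible set (96 of 1514, 5.17 to 7.69%). Antisense RNAs had 15.8 and 3.35%, mature miRNAs 14.8 and 4.04%, and hairpins 15.2 and 4.06%. The intervals of the antisense RNAs, 1.36 to 6.78%, and of the hairpins, 1.77 to 7.84%, overlapped that of the long RNAs.

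Of the 568 regions, 479 were nearest a long RNA, and 94 of these (19.6%) were reproducible. For antisense RNAs the count was 8 of 48 (16.7%) and for the miRNA entries 8 of 34 (23.5%, 10.7 to 41.2%). Of 7 regions at other small RNAs, 1 was reproducible, at the small nucleolar RNA snoRNA:Or-ACA9, with a signal of 524.7 and values of 3.46, 5.08 and 4.76 in the replicates. These classes thus differed by less than their counting intervals.

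The long RNAs that contain a miRNA hairpin on their own strand were set beside the other long RNAs. Such hosts can be the primary transcripts from which miRNAs are cut, but here they were defined by annotated position alone. They were singled out after their values were seen, so the counts are a description with no test. Only regions that met the rule and had that RNA as their nearest ncRNA entry were counted here, so the counts add up to fewer than the 96 above. Of 31 isolated ones, 8 had a reproducible region at the start (25.8%, 11.9 to 44.6%), against 80 of 1483 long RNAs without a hairpin (5.39%, 4.3 to 6.67%). Counted over regions, 8 of 19 (42.1%, 20.3 to 66.5%) were reproducible at hairpin hosts, against 86 of 460 (18.7%, 15.2 to 22.6%) at the other long RNAs. Hairpin hosts were also longer, with a median of 7584 bp against 668 bp. Among isolated long RNAs of 2000 bp or more, the share was 7 of 28 (25%, 10.7 to 44.9%) for hosts and 9 of 139 (6.47%, 3.0 to 11.9%) for the others.

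The 8 hosts included several well-studied miRNA genes. CR31044, at a signal of 2835, carries mir-279 and mir-996, and Hsromega, at 1258, carries mir-4951. The host of mir-14, lncRNA:CR43651 on 2R, had a signal of 649.2 and values of 5.97, 5.35 and 5.81 in the replicates, with its summit 50 bp upstream of the start. Its miRNA is known for limiting cell death. The host of bantam, a miRNA that promotes growth and blocks apoptosis, is lncRNA:CR43334, which had a signal of 334.1 and values of 2.91, 2.75 and 2.77, with the summit 36 bp inside.

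The host of mir-277 and mir-34, lncRNA:CR43459, had a signal of 290.1 and values of 2.41, 2.41 and 2.63. The hosts of mir-bft (lncRNA:CR43314), mir-275 (lncRNA:CR43857) and mir-8 (lncRNA:CR43650) followed with 255.6, 242.0 and 218.5. Their replicate values were less even, with 2.53, 2.66 and 1.32 at CR43314, 2.69, 2.59 and 1.36 at CR43857, and 0.752, 2.36 and 2.62 at CR43650. CR43650 had a stronger region, of 435.8, within 1000 bp. The hosts iab4, iab8 and let7C, which carry mir-iab-4, mir-iab-8 and the let-7 cluster, had no pooled region within 500 bp of their starts.

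The mature strands of the hairpins within 6 of these 8 hosts are given to show which miRNAs are concerned, with the seed (bases 2 to 8) in capitals. RA and RB are the annotation's names for the strands of 1 hairpin, and the sequences were read from the RefSeq assembly.
mir-279-RA: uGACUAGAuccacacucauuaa
mir-279-RB: aGUGGGUGgggguccaguguuucaca
mir-996-RA: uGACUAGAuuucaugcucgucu
mir-996-RB: gCGAACAUggaucuagugcacg
mir-ban-RA: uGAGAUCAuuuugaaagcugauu
mir-ban-RB: cCGGUUUUcgauuugguuugacu
mir-277-RA: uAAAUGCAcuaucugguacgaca
mir-277-RB: cGUGUCAGgagugcauuugca
mir-34-RA: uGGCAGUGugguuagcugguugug
mir-34-RB: cAGCCACUaucuucacugccgcc
mir-275-RA: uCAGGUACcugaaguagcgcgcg
mir-275-RB: cGCGCUAAucagugaccggggcu
mir-bft-RA: aAUGGCACuggaagaauucacggg
mir-bft-RB: cGUGAUCUcuuaguggcaucua
mir-4951-RA: uCGGGUGAgguuucugaugcu
mir-4951-RB: cCAUCAAAaaaccucacccacca
The RA strands of mir-279 and mir-996, which share 1 host, also share the seed GACUAGA, and no other strands listed share a seed.

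A further 34 regions were nearest a hairpin or mature miRNA itself, at 29 hairpins, and 8 of these regions were reproducible. The strongest lay at mir-9377-RB, in an intron of Tis11, which encodes a zinc-finger protein of mRNA decay, with a signal of 864.8 and values of 8.56, 7.38 and 6.55. The second, of signal 685.0, lay 458 bp upstream of the hairpin of mir-275, inside its host CR43857, with values of 6.54, 6.04 and 5.32. At mir-275 the region next to the hairpin was thus stronger than the one at the host's start, 685.0 against 242.0. The region at bantam, 447 bp past the start of mir-ban-RA, had a signal of 419.6 and values of 3.54, 3.25 and 4.08, also above the 334.1 at its host's start.

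Intronic miRNAs made up most of the others. The region at mir-4962-RA in Tlk, the gene of a chromatin-linked kinase, had a signal of 427.3. That at mir-2282-RA in sty, whose product restrains receptor tyrosine kinase signalling, had 412.0, and that at mir-9378-RA in CG17124 had 394.8. The regions at mir-2491 and mir-14 had 254.0 and 199.8, the latter close to 198.3, the lowest signal in the reproducible set. At mir-14 replicate 3 gave only 0.803 against 2.14 and 2.73 in replicates 1 and 2. The region nearest the mir-279 hairpin had a signal of 84.0 and was not reproducible, although its host's start was among the 5 strongest.

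Of 41 entries on a list of well-studied ncRNAs, 6 started within 1000 bp of a coding TSS, 14 had a region that met the rule and 21 were isolated without one. Reproducible regions were found at 2 of the 14, Hsromega and flam. Over all 2325 isolated ncRNA entries, 22.2% had a pooled region within 500 bp of the start and 5.46% a reproducible one. Hsromega makes a heat-inducible nuclear RNA that gathers RNA-binding proteins, and its region on 3R from 21296103 to 21296518 had values of 11.0, 11.4 and 10.2. A weaker region in the same stretch had a signal of 159.2 and a spanning region in replicate 2 alone. flam is the source of piRNAs, small RNAs that silence transposons in the somatic cells of the ovary. Its region lay 188 bp upstream of the start, on X from 21631587 to 21631813, with a signal of 460.8 and values of 4.06, 4.22 and 3.44. In both RNAs the 3 replicates lay close together.

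roX1 and roX2 are the RNAs of the dosage compensation complex on the male X. Their regions had weak pooled signals and were not reproducible. roX1 had a signal of 119.4 with values of 2.6, 1.98 and 0.583, and roX2 126.9 with 1.26, 1.28 and 0.993. RNaseMRP:RNA and RNaseP:RNA, the RNA parts of RNA-processing enzymes, had 122.5 and 62.08. The signals were 102.2 at noe, 85.42 at the snoRNA host Uhg3 and 53.45 at acal. The testis-specific TS RNAs with a region ranged between 51.56 at TS2 and 136.0 at TS16. The regulatory RNA bxd of the bithorax complex, cherub, yar, CRG, dntRL and both 7SL copies had no pooled region within 500 bp of their starts.

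Near the limits of the rule, CR44619 itself was the farthest from its ncRNA start of the regions counted, at 497 bp, and lncRNA:CR44828 on 2R was just outside at 502 bp, with a signal of 549.6. The region at lncRNA:CR43995 on 3L was just inside the coding limit at 1006 bp from the TSS of CG7139, with a signal of 106.6. That at lncRNA:CR46409 on 2R, 991 bp from CG43188 and with a signal of 52.17, was left out.

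Summits lay on either side of the annotated start. Upstream of the ncRNA start were 310 of 568 summits (54.6%, 50.4 to 58.7%), with a median position of -38 bp, where negative means upstream. In the reproducible set 68 of 111 were upstream (61.3%, 51.5 to 70.4%, median -103 bp), and outside it 53.0% (median -25 bp). The share that was reproducible was lowest just downstream of the start. It was 13 of 121 (10.7%, 5.85 to 17.7%) from 0 to 250 bp, against 22.8% (17.0 to 29.6%) in the 250 bp upstream. It was 21.9% from 251 to 500 bp downstream and 20.6% from 251 to 500 bp upstream. Antisense RNAs had 64.6% of summits upstream (49.5 to 77.8%) and the miRNA entries 44.1% (27.2 to 62.1%).

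**Figure D3:**
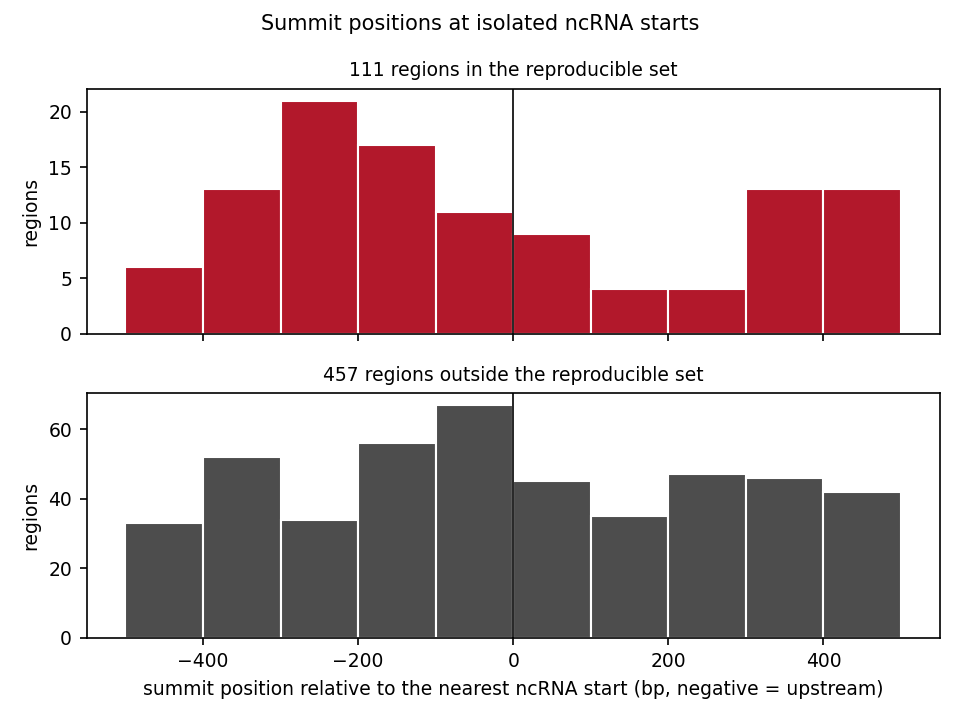
Number of summits by position relative to the nearest ncRNA start, in bins of 100 bp with negative values upstream, for the 111 reproducible regions (top) and the other 457 (bottom). The reproducible summits are most frequent upstream of the start, with 61.3% of them there, and are sparse just downstream of it.

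The genomic setting differed from that of the other far regions, which the rule does not tie to annotated ncRNA genes. The setting of all isolated ncRNA starts, bound or not, was not counted, so this difference is not a result about binding. Positions outside coding genes, called intergenic, held 376 of the 568 (66.2%), introns of coding genes 168 (29.6%) and exons of coding genes 24 (4.23%). The other regions far from coding TSSs were mostly intronic, with 29.7% intergenic, 64.6% intronic and 5.71% exonic. Of the intergenic regions at ncRNA starts, 79 (21.0%, 17.0 to 25.5%) were reproducible, against 13.3% (12.4 to 14.3%) of intergenic other far regions. In introns the shares were 18.5% (12.9 to 25.2%) and 17.1% (16.4 to 17.8%), so the difference was smaller there and within the counting interval. Of 160 intronic regions with a single host gene, the ncRNA ran opposite to the host in 111 and with it in 49. The strand split of all isolated intronic ncRNA entries was not counted, so these numbers only describe the regions found.

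The share also varied with distance from coding genes. The reproducible share of other far regions was 18.9% from 1001 to 2000 bp, 16.8% from 2001 to 5000 bp, 13.7% from 5001 to 10000 bp and 12.7% beyond 10000 bp. At ncRNA starts the shares in the same bins were 16.2, 21.4, 21.1 and 19.2%. Thus the ncRNA share was the lower one nearest to coding TSSs and the higher one in the other 3 bins. The 568 regions had a median distance of 3671 bp from a coding TSS, against 4692 bp for other far regions.

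**Figure D4:**
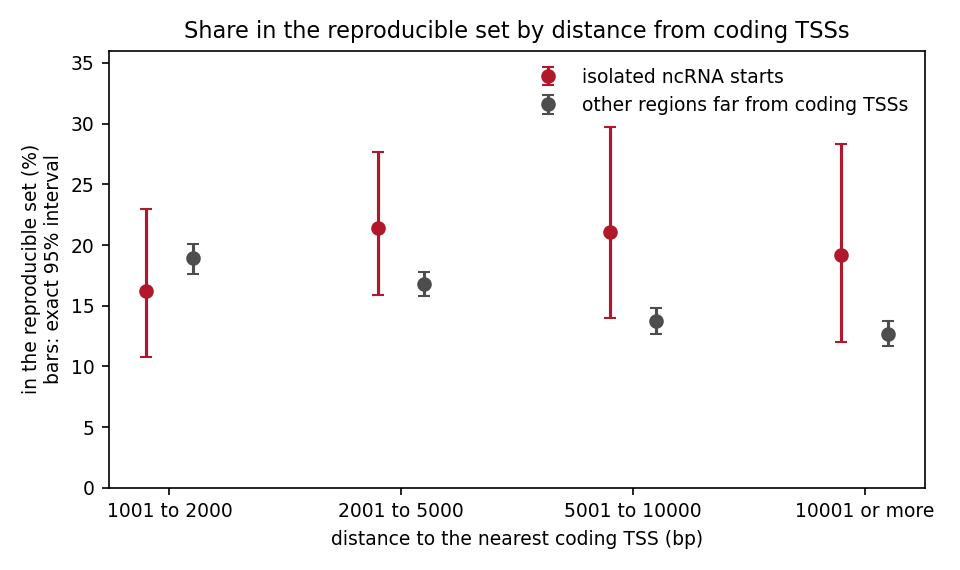
Percent of regions in the reproducible set by distance from the nearest coding TSS, for isolated ncRNA starts (left point of each pair) and other regions far from coding TSSs (right point), with exact 95% intervals that cover counting error over regions only. Isolated ncRNA starts stay between 16.2 and 21.4% across the bins, while the other regions decline to 12.7%, and the intervals overlap in every bin.

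By chromosome arm, the share was highest on X, where 17 of 54 (31.5%, 19.5 to 45.6%) regions at ncRNA starts were reproducible, against 17.2% (15.9 to 18.6%) of other far regions there. It was 22.3% against 16.0% on 2R, 19.0% against 14.2% on 2L, 18.8% against 15.1% on 3R and 15.3% against 15.5% on 3L. On the small arm 4 it was 0 of 8 (exact upper bound 36.9%), against 10.2%.

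Reproducible regions at ncRNA starts were A/T-rich at the summit. Within 50 bp of the summit, median G+C was 31.7% in the 111 reproducible regions and 40.6% in the other 457, while flanks centred 500 bp away had 42.6 and 41.6%. The summit was lower in G+C than its flanks in 80 of 111 (72.1%), against 230 of 457 (50.3%). Since the reproducible set consists of the regions of highest pooled signal, this is a difference between strong and weak regions. It was not particular to ncRNA starts: reproducible other far regions had 32.7%, with 76.7% lower than their flanks, and reproducible regions at coding TSSs had 34.7%.

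The hairpin hosts departed from this composition. At their 8 reproducible starts median G+C was 47.5% (range 33.7 to 59.4%), against 30.7% (range 18.8 to 56.4%) at the other 103 reproducible regions, and the flanks had 40.1 and 43.1%. The summit was lower in G+C than its flanks in 2 of the 8, against 78 of the 103. Of the 8, 5 had the default width of 436 bp, against 30 of the 103. Their median signal was 312.1, against 412.0. Whether composition or signal bears on the hosts' share was not tested.

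**Figure D5:**
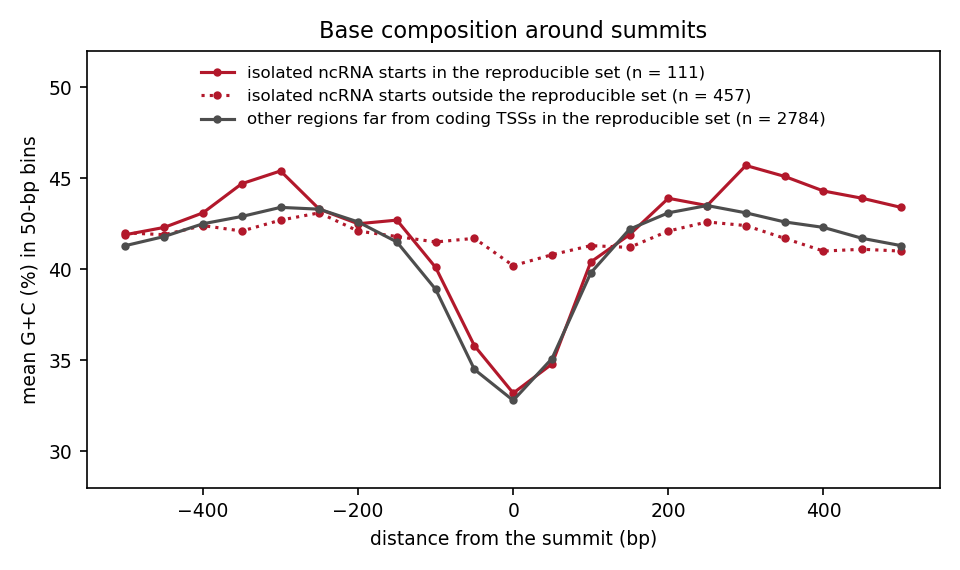
Mean G+C in bins of 50 bp by distance from the summit, for reproducible regions at isolated ncRNA starts (solid red), the other regions at ncRNA starts (dotted red) and reproducible other regions far from coding TSSs (grey). Both reproducible groups fall to about the same low at the summit, 33.2 and 32.8%, while the weaker ncRNA regions stay at 40.2%.

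Of 7 motifs searched on both strands within 50 bp of the summit, the TATA box word TATAAA differed most between reproducible and other regions at ncRNA starts, at 25.2 and 12.5%. Reproducible other far regions had 22.3%, and the word consists of A and T alone, so its share moves with base composition. Over all 568 regions it was 15.0%, against 16.0% of other far regions. The promoter element TATCGATA (DRE) was found in 0 of the 568 (exact upper bound 0.647%), against 2.22% of regions at coding TSSs and 0.223% of other far regions. The shorter CGATA, bound by the insulator protein BEAF-32 and contained in the DRE, was found in 10.6%, against 11.6% of other far regions and 18.4% at coding TSSs. The core promoter word GGTCACAC (Motif 1) was found in 0.176%, against 0.201% of other far regions and 1.78% at coding TSSs.

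The other motifs had similar shares at ncRNA starts and at other far regions. GAGAG, the GAGA factor word, was found in 12.0 and 10.4%, CAGGTA, the Zelda word, in 2.46 and 2.1%, and the E-box CAGCTG in 4.4 and 3.79%. At least 1 of the 5 A/T-only words was found at 65.8% of reproducible ncRNA starts, 46.0% of the others, and 67.7% of reproducible other far regions. Those far regions were among the peaks from which the words were chosen, so their 67.7% is not an independent comparison. These matches describe letters in a window and do not locate a binding site.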

How the data were processed

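The data are region lists that the authors deposited for ChIP-seq of CG3281-GFP in embryos, on the dm6 assembly. Per the labels, regions were called for each replicate and for the pooled replicates against a control, and the IDR set was derived from these lists. Neither the aligner nor the caller, nor the threshold on IDR, is given in the sources used here. The signal value and the −log10 q-value of each region are the authors', and the deposited summit offset is counted from the region's start. Lists made on dm3 were not used. Peak lists give no read counts, so depth is unknown. Exact binomial (Clopper-Pearson) intervals cover counting error over regions only. The replicate lists also entered the pooled list and the IDR set, so shares taken from them are not independent.

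Distances were taken from summits to gene starts (ncRNA) and transcript starts (coding) of Ensembl release 115, with 19607 coding TSSs on the 6 arms. Coordinates are 1-based, and bases were read from the RefSeq genome of the matching release. A replicate's value at a summit was that of its strongest region spanning it, so overlapping regions can share a value. The 3 replicate differences were tested by an exact sign-flip permutation test. Distance steps were tested on simulated data. Named RNAs are those at the 25 strongest reproducible regions, those on a list of well-studied ncRNAs and those next to the limits; msa, which the annotation lacks as a symbol, and 7SK, of another biotype, were not matched. The miRNAs, hairpin hosts, Or-ACA9 and the A/T-only words were chosen after their values were seen. The regions, lists and tests were chosen with earlier results of these data known. Python 3.11.15, numpy 2.4.6, pandas 2.3.3, scipy 1.17.1 and matplotlib 3.10.9 were used.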

Additional observations from a re-analysis of the deposited data

How the results depend on the processing

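The ncRNA share among the strongest regions exceeded that of other far regions under every alternative tried, by 3.28 to 4.93 percentage points when 1 replicate was left out. With a distance of 250 bp from the ncRNA start, 305 regions remained, of which 18.0% were reproducible against 15.6% of other far regions; the median relative signal was 0.89, 60.3% of summits were upstream, CGATA was found in 7.54% and GGTCACAC in 0%. With 1000 bp there were 1035 regions, and 18.9% against 15.4% were reproducible. With a coding limit of 500 bp the median relative signal was 0.965. Requiring the stronger 3282 peaks of the reproducible set lowered the ncRNA share to 11.8%, and requiring a peak among the strongest of both other replicates gave 13.7 to 14.8%, stricter filters by construction. An alternative chosen after seeing the data left out regions with a stronger one within 1000 bp, at ncRNA starts and among other far regions alike. At ncRNA starts 342 regions remained, with 27.2% reproducible. The share of other far regions was 20.9%, against 15.5% without this filter. The median signal at ncRNA starts, relative to the unfiltered list, was 1.11, against 0.936 for all 568 regions. The filter drops weaker regions from any group. Medians of the other groups under it are not given, so 1.11 cannot be set against theirs. For the other changes the cause was not tested.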

Other observations

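Some regions at isolated ncRNA starts, strong or weak, stood in small clusters. Vinr, a long RNA on X, had a reproducible region of signal 214.0 with values of 1.0, 2.98 and 1.67 in the replicates. The region lay from 12749980 to 12750415 and faced, across the region of signal 7244, the one counted at CR44619. On 2L the regions at CR31840 and CR45352 stood 1761 bp apart with signals of 2839 and 1542. At CR45541 on X the region of 1679 had a region of 2379 at 1557 bp, whose summit was 174 bp from a coding TSS.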
